A study of Mus musculus with 12 samples.

Results

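The comparison described here sets 4T1 tumors treated with BF10 against those treated with IL-10-Fc and covers 6 of the 12 libraries of the series, 3 tumors on each side. Its libraries were chosen by their treatment labels alone. 4T1 is a mouse mammary carcinoma line, and the cells were injected orthotopically into Balb/c mice, so all groups shared the line, the strain and the site. Treatment began when a tumor reached 100 mm3. The labels give 6 doses where the series text and the study's RNA sequencing methods give 4, so the number of doses is uncertain. IL-10-Fc is recombinant interleukin-10 joined to an Fc part. BF10 is an antibody against the mouse receptor CSF1R (clone AFS98, a mouse IgG2a) that carries human interleukin-10 at its end, and per the study's methods the proteins were given at doses made equivalent by molecular weight. BF10 thus has the CSF1R-binding antibody in addition, in another molecular format, and the comparison asks how tumors given interleukin-10 with that antibody differ in RNA from those given IL-10-Fc. The other libraries, 3 tumors with a control IgG and 3 with the CSF1R antibody alone (aCSF1R), served to estimate the spread and as reference levels. The labels give no age for the mice. Human IL-10 in the proteins is not RNA of the tumor and is not seen in these values.

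CSF1R is the receptor tyrosine kinase for CSF1 and IL-34, and most tissue macrophages need its signal to survive. Interleukin-10 binds a receptor of 2 chains, encoded by Il10ra and Il10rb, and acts through the transcription factor STAT3, which induces Socs3 among other genes. In macrophages this restrains inflammatory cytokines, whereas CD8 T cells can respond with more cytotoxic activity. A tumor homogenate holds all of these cells together, and fewer cells of a type cannot be told apart from less RNA per cell.

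No gene differed between BF10 and IL-10-Fc tumors at the threshold used, an adjusted p below 0.05 with at least a 1.5-fold difference. Of 15504 tested genes, 0 (0%) passed in limma, and the smallest adjusted p was 0.253. At an unadjusted p below 0.05 there were 42 genes (0.271%), of which 25 were higher (0.161%) and 17 lower (0.11%) in BF10. The 3 BF10 and 3 IL-10-Fc values did not overlap for 96 genes with BF10 higher (0.619%) and 234 with BF10 lower (1.51%). The median difference over all tested genes was -0.05 (log2, BF10 minus IL-10-Fc), and 35.7% of genes had a difference above 0. That share is the background for every gene list below. The all-gene median itself moved on leaving out a library. It was 0.15 without BF10 replicate 6, -0.13 without BF10 replicate 3 and -0.18 without IL-10-Fc replicate 7. List medians given below without a library are to be read against these values. Outside 1 gene, Gm47314, each gene tested had an adjusted p of 1.00 in limma, and none of the genes named below passed the threshold.

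The spread between tumors set how small a difference could be seen. The tumors fell into a pair of sets by the sum of their FPKM values, the length- and depth-scaled fragment values of the authors' table. BF10 replicate 6 and IL-10-Fc replicate 7 summed to 829206 and 782919 and are called higher-sum here, and the other 4 libraries summed to 636765 to 648413 and are called lower-sum. Mitochondrial genes took 5.90 to 6.77% of the higher-sum libraries and 3.27 to 3.96% of the lower-sum ones. Ribosomal protein genes took 20.0 to 20.8% of the higher-sum libraries and 12.5 to 14.6% of the lower-sum ones. The part of these shares in the levels of other genes was not tested. Pearson's r across genes was 0.982 between BF10 replicate 6 and IL-10-Fc replicate 7, 0.956 to 0.984 among the lower-sum libraries, and 0.915 to 0.979 over the 6 pairs within a treatment group. Thus a tumor could be nearer to a tumor of the other treatment than to its own group. Relative sequencing depth, estimated from genes at the value of about 1 read, was 0.969 to 1.06 in the 6 libraries. It rested on 10 to 17 genes per library. Only genes with values close together across libraries were kept, so a result near 1 was built in. This estimate cannot tell whether depth differed. BF10 and IL-10-Fc each held 1 higher-sum and 2 lower-sum libraries, so a model term for the set left each difference unchanged and narrowed its error. The split of control and aCSF1R tumors by set is not given here, and their reference levels are not adjusted for it. The median standard error fell from 0.43 to 0.22 on the log2 scale. The 95% interval of the difference lay within 2-fold for 43.8% of genes without the term and for 88.2% with it. With the term 0 genes passed the threshold, the smallest adjusted p was 0.0519, and 141 genes (0.909%) had an unadjusted p below 0.05, 58 higher and 83 lower in BF10. Another library stood apart: BF10 replicate 3 held far more neutrophil RNA than any of the other 5, as given below.

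**Figure D1:**
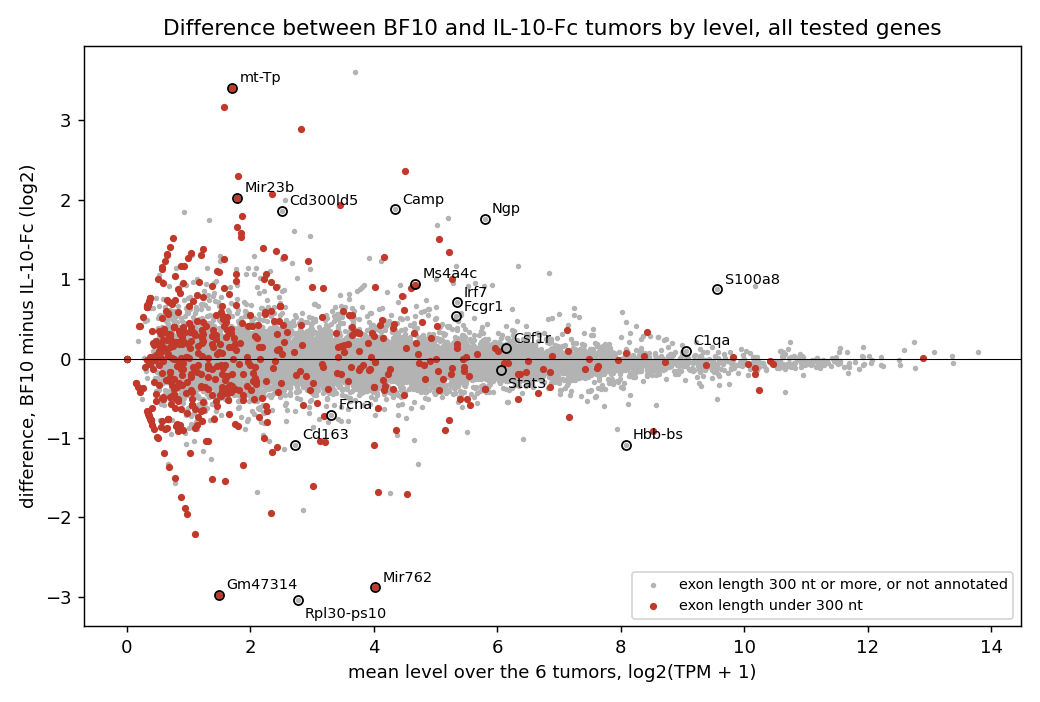
Difference between BF10 and IL-10-Fc tumors (y axis, log2) against the mean level over the 6 tumors (x axis, log2(TPM + 1)) for each of the 15504 tested genes, with genes of an exon length under 300 nt in red. The largest differences sit at low levels and among short genes, while Csf1r, Stat3 and C1qa lie near 0; none of the genes passed the threshold.

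Short RNA genes led the list by p and by size. Of the 42 genes with an unadjusted p below 0.05, 25 had an exon length under 300 nt, a class that made up 3.53% of tested genes, and 4 of the 42 were protein-coding. The kit selects polyadenylated RNA, and such genes are shorter than or close to the sequenced fragments, so a value of a few TPM (the FPKM rescaled to the same total in each library) can rest on few reads. The genes named by the rule held 4 microRNA genes with a mature sequence in RefSeq (GRCm38.p6), of which Mir23b was among the 42. Their mature sequences are shown, as the short genes that led the list and have a sequence there, with the seed, bases 2 to 8, in capitals. For Mir23b only the 5p sequence was available, so the sequences shown may not be all.
mmu-miR-23b-5p: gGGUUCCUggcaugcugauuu
mmu-miR-1982-5p: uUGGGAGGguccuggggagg
mmu-miR-1982-3p: uCUCACCCuauguucucccacag
mmu-miR-762: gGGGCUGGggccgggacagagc
mmu-miR-2861: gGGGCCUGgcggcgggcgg
No seed was shared among these 5. The libraries measure RNA that covers the hairpin gene, not the mature microRNA.

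Mir23b (chr13:63300484-63300557, plus strand, an annotated hairpin of 74 bases) was at 4.32, 6.34 and 7.73 TPM in BF10 replicates 3, 6 and 7 and at 0, 4.03 and 0 TPM in IL-10-Fc replicates 2, 4 and 7. The same order of replicates is kept in all sentences below. The groups did not overlap, but IL-10-Fc replicate 4 came close to BF10 replicate 3. Mir1982 (chr10:80828797-80828870) was at 4.36, 4.61 and 6.71 TPM in BF10 and 0, 3.52 and 0.639 TPM in IL-10-Fc. Mir762 (chr7:127708487-127708562) went the other way, with 12.6, 14.8 and 0 TPM against 40.7, 30.6 and 63.9 TPM, and Mir2861 (chr2:32712807-32712888) had 9.20, 0 and 8.83 TPM against 14.6, 15.4 and 10.1 TPM. In control tumors Mir762 spanned 0 to 33.3 TPM and in aCSF1R tumors 5.22 to 82.7 TPM, as wide as the whole gap between BF10 and IL-10-Fc. The unadjusted p was 0.011 for Mir23b and 0.0642 for Mir762.

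The smallest p of all belonged to Gm47314 (chr2:122028642-122028709), annotated as a microRNA gene of 68 bases. It was listed at 0 in all 3 BF10 tumors and at 10.3, 9.89 and 2.92 TPM in IL-10-Fc tumors, with an adjusted p of 0.253 in limma. It was also listed at 0 in the 3 control tumors and reached at most 1.04 TPM in aCSF1R tumors. mt-Tp, the mitochondrial transfer RNA for proline, showed the reverse, with 11.1, 8.14 and 9.94 TPM in BF10 and 0 in all 3 IL-10-Fc tumors. Yet the control tumors spanned 0 to 22.96 TPM and the aCSF1R tumors 0 to 44.7 TPM for mt-Tp. The long noncoding RNA Gm49207 was at 11.9, 8.38 and 8.54 TPM against 0, 3.72 and 2.33 TPM, and the pseudogene Rpl30-ps10 at 0, 12.5 and 0 TPM against 15.7, 15.3 and 26.5 TPM. Ribosomal protein pseudogenes share sequence with their parent genes, so reads may be split between them. Also named by the rule, Gm25953, Gm12744 and Gm24616 were higher by 1.53, 0.71 and 0.48 (log2), and Gm5566, Gm22392, Gm12854, Gm17711 and Gm22133 had differences of -1.68, -1.94, -0.62, -0.39 and -0.91.

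The gene of the receptor that BF10 binds showed no difference that could be told from the spread between tumors. Csf1r was at 139.8, 26.7 and 101.2 TPM in BF10 and at 88.8, 89.8 and 36.4 TPM in IL-10-Fc. The higher-sum tumor was the lowest of each group, and the groups overlapped fully. The difference was 0.13 (log2, 95% interval -1.88 to 2.14, or -0.65 to 0.90 with the set term). Control tumors spanned 18.8 to 92.7 TPM, whereas aCSF1R tumors spanned 1.26 to 20.6 TPM, below every BF10 tumor. The ligand genes gave the same picture, with a difference of -0.15 for Csf1 (95% interval -0.89 to 0.59 with the set term) and -0.08 for Il34 (-0.60 to 0.43).

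The genes of the interleukin-10 pathway had differences near 0. Mouse Il10 itself was at 1.16, 2.01 and 3.15 TPM against 1.37, 2.33 and 2.30 TPM. Il10ra, the ligand-binding chain, was at 19.8, 7.42 and 16.1 TPM against 14.2, 16.8 and 8.56 TPM, a difference of 0.07 (95% interval -0.42 to 0.55 with the set term). For Il10rb, the shared second chain, the difference was -0.01 (-0.50 to 0.48). Stat3 had 90.3, 25.9 and 102 TPM against 107, 86.8 and 35.6 TPM, a difference of -0.15 (-0.67 to 0.37). Its target Socs3, the feedback inhibitor of the pathway, had 90.6, 48.9 and 119.5 TPM against 79.2, 101 and 62.7 TPM, a difference of 0.03 (-0.48 to 0.53). With the set term these intervals leave out a 2-fold difference in either direction for all of Csf1r, Csf1, Il34, Il10ra, Il10rb, Stat3 and Socs3. Without the term, none of these genes had an interval that left out a 2-fold difference in both directions. Those intervals were -1.11 to 0.94 for Il34, -1.03 to 1.08 for Socs3 and -1.15 to 1.29 for Il10ra. For Il10rb, Stat3 and Csf1 they were -1.515 to 1.5, -1.998 to 1.7 and -2.275 to 1.973. The main fit alone thus leaves a 2-fold difference open for each of them. Of the 20 genes of the list for the receptor and STAT3 response, 11 were above 0 and the median was 0.02. A STAT-type motif, TTCNNNGAA, read in the 300 bases around the start site in RefSeq promoters (GRCm38.p6), stood in 4 of the 17 list genes with a promoter and in 9.55% of all 27025 promoters. The Socs3 promoter holds one, starting 154 bases upstream of the start site (chr11:117969497-117969536, minus strand, motif in capitals), shown because Socs3 is the direct readout of STAT3 in the list.
Socs3: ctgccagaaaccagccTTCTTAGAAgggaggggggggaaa

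**Figure D2:**
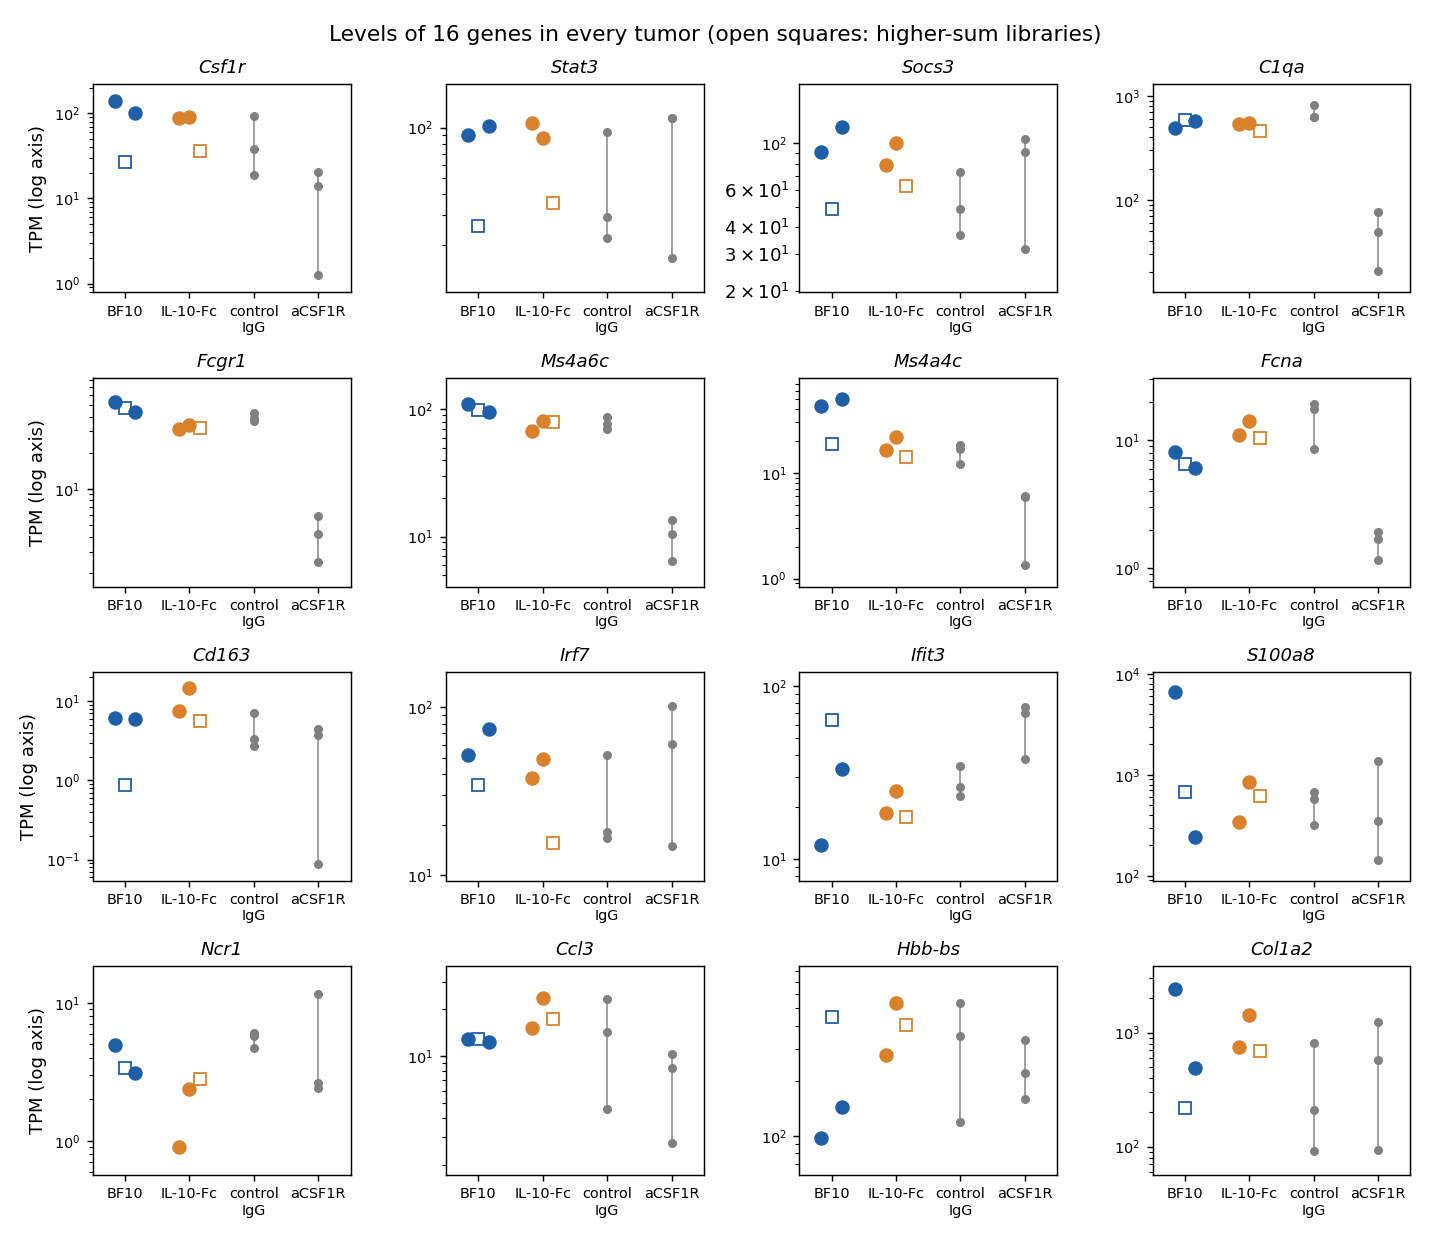
Levels of 16 genes in TPM (log axis) in every BF10 and IL-10-Fc tumor, with open squares for the 2 higher-sum libraries, beside the lowest, median and highest of 3 control IgG and 3 aCSF1R tumors in grey. Csf1r and Stat3 follow the library set within both treatments, Fcgr1 and Ms4a6c lie above and Fcna below all IL-10-Fc tumors in BF10, and S100a8 is set apart by BF10 replicate 3.

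Macrophage genes were present in both groups, and their levels overlapped. Of 16 core macrophage markers, all tested, 13 had a difference above 0 and the median was 0.14, with 0 past the threshold. The sign of that median depended on single libraries. It was -0.10 without BF10 replicate 3, -0.08 without IL-10-Fc replicate 7 and 0.41 without BF10 replicate 6. The all-gene median in the same fits was -0.13, -0.18 and 0.15, below the list median each time. The list's mean level was 5.29 to 6.28 (log2(TPM + 1)) in BF10 and 5.33 to 5.99 in IL-10-Fc, and it was 2.22 to 3.93 in aCSF1R tumors. C1qa, a chain of complement C1q made by macrophages, was at 496, 589 and 572 TPM against 543, 545 and 460 TPM, and at 20.6 to 76.0 TPM in aCSF1R tumors. The difference between BF10 and IL-10-Fc was 0.10 (95% interval -0.73 to 0.93). Apoe, the highest member, was at 2395, 658 and 1245 TPM against 1726, 2093 and 705 TPM, again lowest in the higher-sum tumor of each group. Mrc1, the mannose receptor, was at 38.2, 41.5 and 32.9 TPM against 33.5, 39.9 and 43.5 TPM.

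Fcgr1, the high-affinity IgG receptor, was at 52.6, 46.8 and 43.9 TPM in BF10 and 31.6, 33.9 and 32.3 TPM in IL-10-Fc, without overlap, and its difference was 0.53 (95% interval -0.05 to 1.12, unadjusted p = 0.0704 in limma, 0.0283 with the set term). Control tumors lay between the groups, at 36.4 to 42.5 TPM, and aCSF1R tumors at 2.45 to 5.98 TPM. The difference was 0.54 in the lower-sum and 0.52 in the higher-sum libraries, so neither set carried it alone. The motif TTCNNNGAA stood in 1 of 10 core macrophage genes with a promoter (10%), near the 9.55% of all promoters. The Fcgr1 promoter holds it 109 bases upstream of the start (chr3:96294055-96294094, minus strand). It is printed because Fcgr1 is the core macrophage marker without overlap between the groups.
Fcgr1: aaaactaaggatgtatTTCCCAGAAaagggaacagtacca
In the list of 7 Fc gamma receptor genes, 5 were above 0 with a median of 0.20, and Fcer1g, the signalling chain, was highest in level, with a difference of 0.27.

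Of the 12821 protein-coding genes tested, 49 were without overlap with BF10 higher and 168 with BF10 lower. Both shares were below those of all tested genes, 0.619% and 1.51%. A few of each, chosen after their values were seen and so no sample of the rest, are given here. On the higher side, Ms4a6c, a membrane protein of the MS4A family found in macrophages, was at 111, 98.1 and 95.5 TPM in BF10 and 68.1, 81.2 and 78.9 TPM in IL-10-Fc, a difference of 0.41 (95% interval -0.14 to 0.97). Its relative Ms4a4c was at 42.8, 18.7 and 49.7 TPM against 16.5, 22.1 and 14.3 TPM, overlapping by BF10 replicate 6 only. That difference was 0.94, with an unadjusted p of 0.0777, or 0.00563 with the set term in limma. Cd300ld5, of the CD300 receptor family, was at 24.1, 4.71 and 8.01 TPM against 1.98, 4.15 and 0.754 TPM, a difference of 1.86 (95% interval 0.34 to 3.39). Both families are groups of close copies, so reads can be split among members. Lpcat2, an enzyme of phospholipid remodelling, and Sla, an adaptor in immune cells, also did not overlap, with differences of 0.36 and 0.42. Clec12a, a lectin receptor of myeloid cells, was at 60.9, 18.8 and 19.8 TPM against 13.2, 17.4 and 18.1 TPM, so its difference of 0.79 rested on BF10 replicate 3 and was 0.25 without it. All of Ms4a6c, Ms4a4c, Lpcat2, Sla and Clec12a had their lowest group median in aCSF1R tumors. On the lower side were, among others, Septin2 (ENSMUSG00000026276), Plod2, Ednrb, Uba6, Pik3ca, Zfp266 and Sox4, with differences between -0.68 for Ednrb, an endothelin receptor, and -0.31 for Zfp266. Plod2, a lysyl hydroxylase of collagen, was at 41.4, 54.9 and 52.7 TPM against 56.0, 64.0 and 80.9 TPM, a difference of -0.42 (95% interval -0.94 to 0.10). Pik3ca, the catalytic subunit p110 alpha of PI3 kinase, was at 23.2, 26.9 and 22.5 TPM against 31.6, 29.6 and 34.0 TPM.

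Some other macrophage genes had a difference below 0, though 13 of the 16 core markers had one above 0. Fcna was named for its lack of overlap and Cd163 as the largest fall among the core markers. Fcna, a ficolin of the lectin complement pathway made by macrophages, was at 8.01, 6.45 and 6.01 TPM against 10.99, 14.0 and 10.4 TPM, without overlap, a difference of -0.71 (95% interval -1.43 to 0.01, unadjusted p = 0.0528 in limma, 0.0177 with the set term). Control tumors spanned 8.58 to 19.2 TPM and aCSF1R tumors 1.15 to 1.90 TPM, so BF10 lay between IL-10-Fc and aCSF1R. Cd163, the scavenger receptor for hemoglobin-haptoglobin and a gene known to be induced by interleukin-10, was at 6.07, 0.868 and 5.99 TPM against 7.44, 14.6 and 5.68 TPM. Its groups overlapped, and its difference was -1.08 (95% interval -2.64 to 0.47, or -1.80 to -0.36 with the set term). The chemokine genes Ccl3 and Ccl4 did not overlap either, with 12.9, 12.9 and 12.3 TPM against 15.1, 23.8 and 17.4 TPM for Ccl3, a difference of -0.50 (95% interval -1.70 to 0.69). The difference for Ccl4 was -0.38. Their list, inflammatory macrophage and cytokine genes, had 2 of 16 above 0 and a median of -0.17. Without BF10 replicate 6 the list median was 0.03, below the all-gene median of 0.15 in that fit. The alternatively activated list had a median of -0.18 with 3 of 13 genes above 0, and the lipid-associated list, which includes Spp1 (osteopontin) and Trem2, had a median of 0.03 with 9 of 16.

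Across all lists, 557 of 620 listed genes were tested and 42.9% had a difference above 0, against 35.7% of all tested genes. The BF10 and IL-10-Fc values did not overlap for 4 of them with BF10 higher (0.718%, against 0.619% of all genes) and 4 with BF10 lower (0.718%, against 1.51%), so the share was near the background in the first direction and below it in the second. The 4 higher were Fcgr1, Ncr1, Klra7 and Cxcl16, and the 4 lower were Ccl3, Ccl4, Cdc6 and Skil. The gap was narrow for some of them, as for the chemokine gene Cxcl16, at 143, 139 and 139 TPM in BF10 against 106, 136 and 138 TPM in IL-10-Fc. Skil, a repressor of TGF-beta signalling, had a difference of -0.30 (95% interval -0.91 to 0.31) and Klra7, a natural killer receptor with close copies, one of 0.24 (-0.44 to 0.92). None of the 557 reached an unadjusted p below 0.05 in limma without the set term, and 4 did with it (0.718%, against 0.909% of all genes, so no more than the background): Fcgr1, Irf7 and Tgfbi with differences above 0, and Cd163 with one below.

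Type I interferon response genes stood higher on balance in BF10, without any gene past the threshold. Of 20 tested, 19 had a difference above 0, and the median was 0.37. Irf7, the transcription factor that amplifies the response, was at 52.1, 34.5 and 74.0 TPM against 37.7, 49.5 and 15.4 TPM, with overlap and a difference of 0.71 (95% interval -0.84 to 2.26, or 0.06 to 1.37 with the set term). Ifit3 was at 12.1, 63.3 and 33.4 TPM against 18.6, 24.8 and 17.5 TPM, and Isg15, a ubiquitin-like modifier, at 57.2, 109 and 85.5 TPM against 67.4, 89.3 and 36.7 TPM. In both, BF10 replicate 3 lay below IL-10-Fc replicates 2 and 4. The median of the list was 0.07 in the lower-sum libraries and 0.78 between the 2 higher-sum libraries. Without IL-10-Fc replicate 7 it was 0.06, where the all-gene median was -0.18, so its size depended on that library. Ddx58 was the member with a difference below 0, at -0.02. Ifi44l, outside the list and chosen after its values were seen, did not overlap, at 27.2, 47.7 and 32.4 TPM against 24.6, 24.7 and 21.1 TPM.

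The interferon-stimulated response element, searched as GAAA, any pair of bases and GAAA again on both strands, stood in 9 of the 15 list genes with a promoter in RefSeq and in 3.99% of all promoters. A pair of promoters is shown, since they carry the element in more than 1 copy (capitals mark each copy): Ifit3 at 156 and 122 bases upstream (chr19:34583364-34583423, plus strand) and Isg15 at 78, 72 and 66 bases upstream with overlapping copies (chr4:156200864-156200908, minus strand).
Ifit3: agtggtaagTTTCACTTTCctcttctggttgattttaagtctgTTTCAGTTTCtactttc
Isg15: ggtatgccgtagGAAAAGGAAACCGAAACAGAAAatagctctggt
The type II response list, in which 9 of 14 genes with a promoter hold the element, gave no such count. Of 22 interferon gamma response genes 11 were above 0, and the median was 0.01. Cxcl9, a chemokine for T cells, was at 189, 131 and 129 TPM against 124, 143 and 193 TPM. The class II antigen presentation genes had 2 of 11 above 0 with a median of -0.03, and class I had 6 of 14 with a median of -0.01.

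T cell and cytotoxic genes had no member past the threshold. The expanded immune signature of the study, 16 genes of T cells and their chemokines, had 8 above 0 and a median of -0.0038. Its members ranged from -0.31 for Ccl5 (73.5, 20.4 and 36.3 TPM against 45.3, 61.9 and 37.9 TPM) to 0.26 for Cxcl10 (108, 47.2 and 74.8 TPM against 66.0, 73.8 and 44.6 TPM). Ciita and Ido1 had differences of -0.20 and 0.25, and Lag3, a checkpoint receptor, one of 0.22. Of 12 CD8 T cell genes 2 were above 0, with a median of -0.17, but the median was 0.11 in the lower-sum libraries and 0.21 without BF10 replicate 6. Cd8a was at 6.80, 2.52 and 4.63 TPM against 7.98, 7.74 and 4.09 TPM. The difference for Cd8a was -0.46 (95% interval -1.46 to 0.55). Cytotoxic effector genes had 10 of 14 above 0 with a median of 0.12. Gzmb was at 15.6, 12.1 and 21.9 TPM against 12.2, 20.7 and 12.6 TPM, and Prf1, perforin, had a difference of 0.05. Gzmc had the largest difference in the list, 0.93 (95% interval -0.43 to 2.30), with 16.5, 26.7 and 53.2 TPM against 7.68, 24.9 and 15.8 TPM. Regulatory T cell genes had a median of 0.14 with 5 of 8 above 0, and exhaustion and checkpoint genes one of 0.01 with 6 of 11. Among natural killer genes, 3 of 9 were above 0, and Ncr1, the receptor NKp46, did not overlap at 4.93, 3.40 and 3.10 TPM against 0.911, 2.38 and 2.81 TPM. Control tumors had 4.72 to 6.05 TPM of Ncr1, so all IL-10-Fc values and BF10 replicates 6 and 7 lay below control.

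Neutrophil genes had the highest list median, and 1 tumor made it. S100a8, the calgranulin that is among the most abundant neutrophil RNAs, was at 6522, 681 and 241 TPM in BF10 and 339, 845 and 611 TPM in IL-10-Fc. Granule genes of immature neutrophils followed, with 1566, 25.2 and 25.2 TPM against 17.5, 69.0 and 20.4 TPM for Ngp. Camp was at 531, 14.7 and 6.05 TPM against 4.71, 17.3 and 10.3 TPM. Ly6g was at 74.8, 1.46 and 1.13 TPM against 1.21, 5.04 and 2.02 TPM. In each of these BF10 replicate 3 stood above every other tumor of the series, and the other 2 BF10 tumors lay within the IL-10-Fc range or near it. The summed level of the 17 tested genes was 20630 TPM in BF10 replicate 3, 1307 to 2071 in the other BF10 tumors and 1620 to 2971 in IL-10-Fc. The median difference was 0.45 with 15 of 17 above 0, and without BF10 replicate 3 it was -0.44. Of the monocyte genes, 9 of 12 were above 0 with a median of 0.20, and without that tumor the median was -0.17. Stfa3, a stefin with close copies in a cluster, was named by the rule as not overlapping, with 476 TPM in BF10 replicate 3 and 23.7 to 25.6 TPM in the other BF10 tumors against 17.1 to 22.7 TPM.

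**Figure D3:**
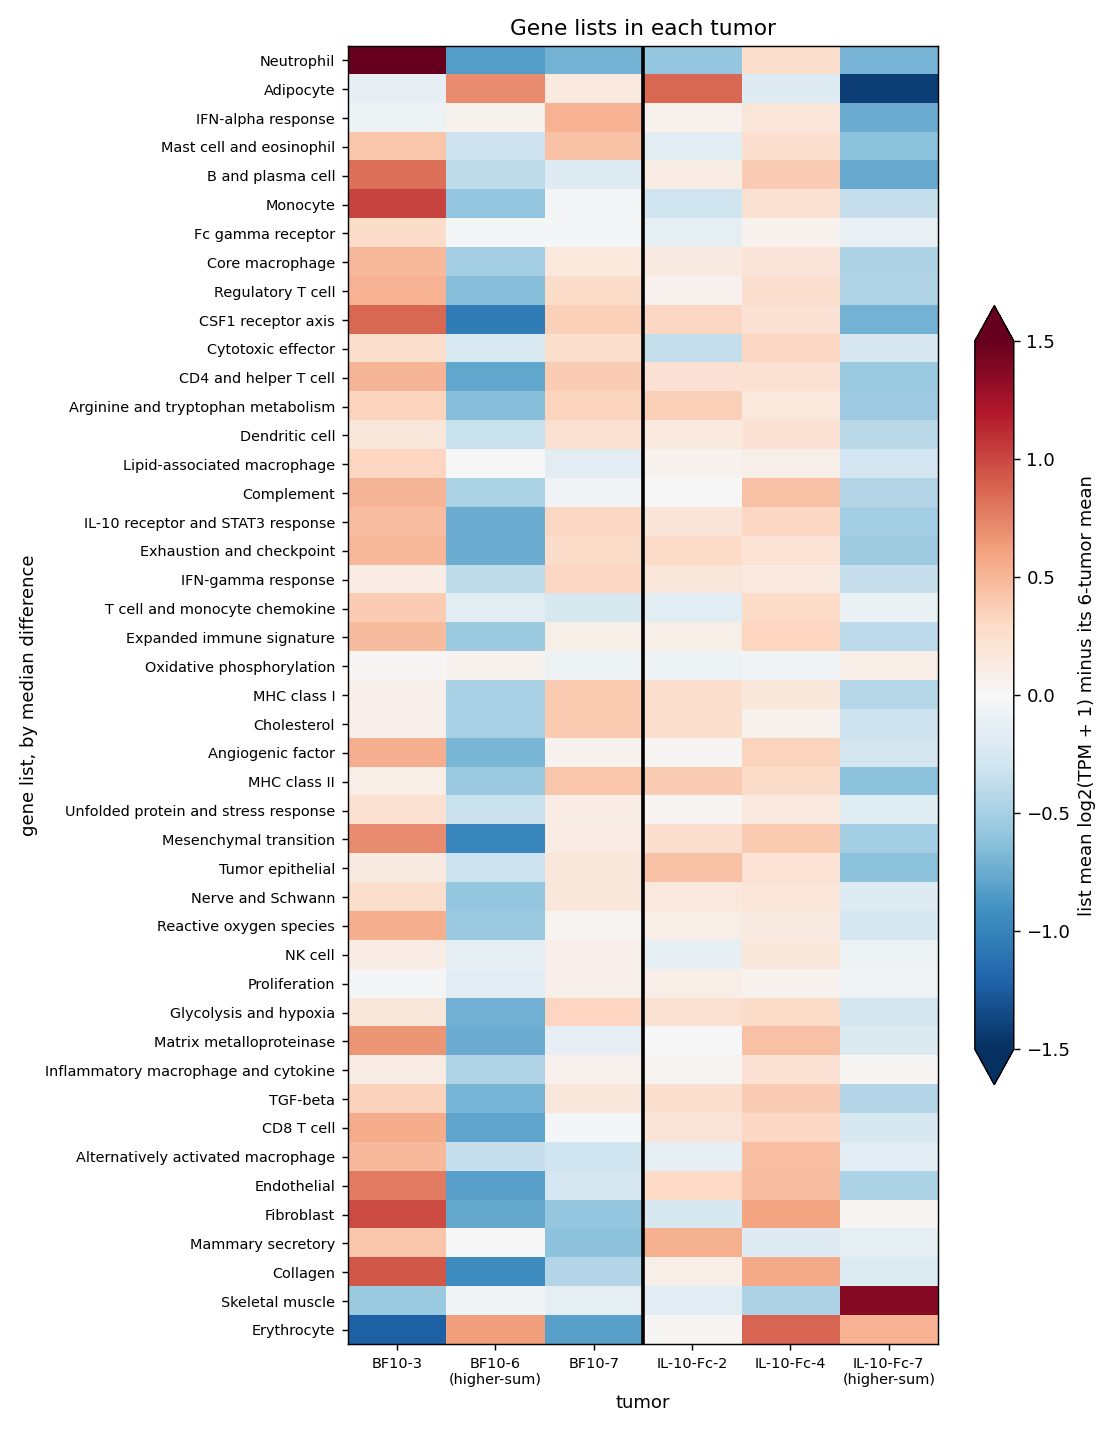
Mean level of each gene list (rows, log2(TPM + 1)) in each of the 6 tumors (columns) relative to the mean of the 6, for the 45 lists with at least 3 tested genes, ordered from the highest to the lowest median difference; the colour scale ends at 1.5 in each direction. The higher-sum columns are low for most lists in both treatments, and BF10 replicate 3 is high for neutrophil, monocyte and stromal lists.

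Stromal and tissue genes varied with the tumor. All 16 collagen and all 16 fibroblast genes had differences below 0, with medians of -0.29 and -0.27. Yet BF10 replicate 3 had the highest Col1a2 of the 6, with 2391, 218 and 488 TPM in BF10 against 749, 1426 and 685 TPM in IL-10-Fc. The collagen median was -0.03 in the lower-sum libraries and -0.74 between the higher-sum pair. Without BF10 replicate 6 it was 0.12 (0.07 for fibroblast genes), and both were below the all-gene median of 0.15 in that fit. Endothelial genes had 2 of 14 above 0 with a median of -0.24. Without BF10 replicate 6 their median was 0.14, near the 0.15 of all genes. Red cell genes had 0 of 5 above 0 and the lowest median, -1.02. Hbb-bs, a beta-globin with a near-identical neighbour, was at 97.6, 447 and 145 TPM against 279, 535 and 408 TPM, so BF10 replicates 3 and 7 lay below the IL-10-Fc tumors and replicate 6 among them. The summed red cell level was 249 and 352 TPM in BF10 replicates 3 and 7, 990 in replicate 6, and 642 to 1240 in IL-10-Fc. Adipocyte genes had 11 of 11 above 0 with a median of 0.38, but the median was -0.36 in the lower-sum libraries. IL-10-Fc replicate 7 set it: Adipoq was at 7.54, 44.8 and 15.3 TPM against 24.7, 11.4 and 2.23 TPM, and without that tumor the median was -0.15. The same tumor had the most muscle RNA, with a sum of 44.1 TPM over 4 muscle genes against 10.6 to 18.6 TPM in the other 5, while 8 further muscle genes of the list, among them Acta1 and Ckm, did not pass the filter on low values. The part of these tissues in the other differences was not tested.

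The proliferation, metabolic and epithelial lists had no member past the threshold either. Of 20 proliferation genes 2 were above 0, with a median of -0.08 (0.02 without BF10 replicate 6, where the all-gene median was 0.15). Mki67 was at 47.0, 97.1 and 57.0 TPM against 54.9, 63.0 and 83.5 TPM. Cdc6, a replication licensing factor, did not overlap, at 16.2, 16.3 and 15.6 TPM against 18.2, 16.7 and 19.3 TPM, a difference of -0.16 (95% interval -0.95 to 0.63). Oxidative phosphorylation genes had 10 of 20 above 0, a median of -0.0045 and members between -0.12 and 0.17. Glycolysis and hypoxia genes had 1 of 20 above 0 with a median of -0.14, which was 0.22 without BF10 replicate 6. Slc2a1, the glucose transporter, had a difference of -0.17 (95% interval -0.82 to 0.48 with the set term). In the TGF-beta list 3 of 15 were above 0, the median was -0.17 (0.07 without BF10 replicate 6), and the matrix protein gene Tgfbi was at 267, 66.6 and 210 TPM against 123, 153 and 61.0 TPM. Epithelial tumor markers, with 13 of 14 listed genes tested, had 4 above 0 and a median of -0.08. Their mean level was 4.58 to 5.07 (log2(TPM + 1)) in BF10 and 4.28 to 5.33 in IL-10-Fc.

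**Figure D4:**
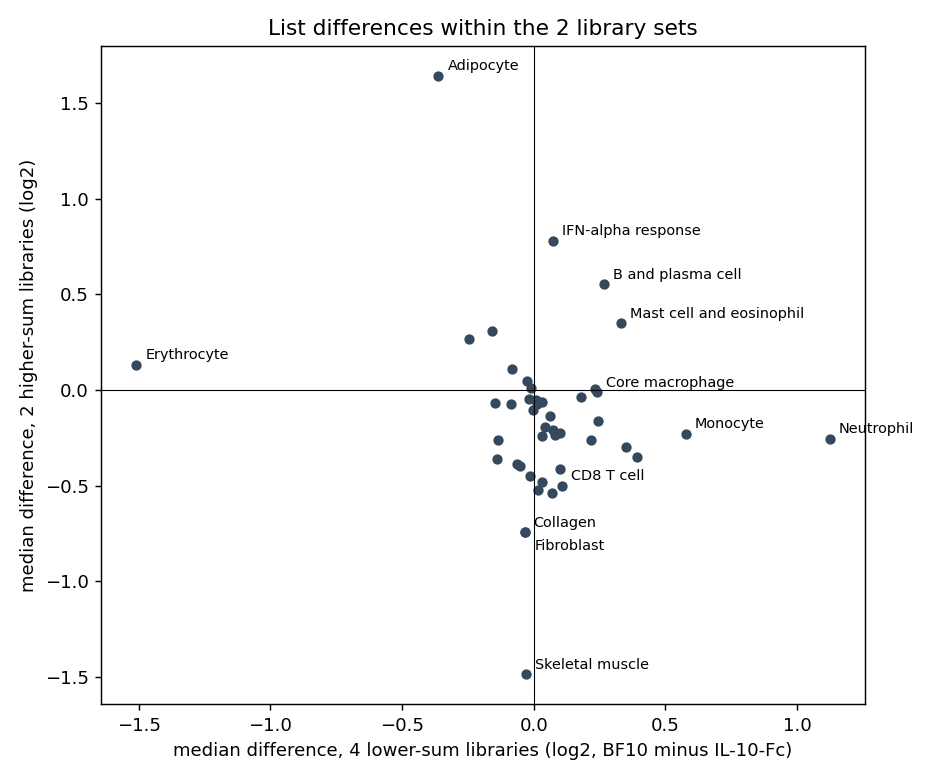
Median difference of each of 45 gene lists (log2, BF10 minus IL-10-Fc) in the 4 lower-sum libraries (x axis) and between the 2 higher-sum libraries (y axis, 1 tumor a side). For 16 lists the sign was the same in both sets and for 29 it was opposite, with neutrophil genes apart on the x axis and adipocyte, muscle and interferon alpha genes apart on the y axis.

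Read within the library sets, most lists had no common direction. Of all 46 lists, 41 had a median that changed sign on leaving out 1 of the 6 libraries. Omitting BF10 replicate 6 did so for 21 lists and omitting replicate 3 for 17. Among 45 lists with at least 3 tested genes, 29 had medians of opposite sign in the lower-sum and higher-sum libraries. In 4 lists both medians were above 0: interferon alpha response, mast cell and eosinophil, B and plasma cell, and Fc gamma receptor. In 12 both were below 0, among them collagen, fibroblast, endothelial, proliferation, glycolysis and hypoxia, TGF-beta and alternatively activated macrophage genes. The all-gene median of -0.05 was itself below 0, and it too changed sign, to 0.15, without BF10 replicate 6. Mast cell and eosinophil genes had 7 of 8 above 0 with a median of 0.37, yet Prg2, an eosinophil granule protein, was at 10.6, 0.796 and 0.575 TPM against 0.424, 1.604 and 0.511 TPM, high in BF10 replicate 3 alone. Tpsb2, a mast cell tryptase, was at 7.45, 5.55 and 16.4 TPM against 7.22, 11.97 and 3.41 TPM.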

How the data were processed

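Bulk RNA of 4T1 tumors was measured with a TruSeq Stranded mRNA kit, 3 tumors in each of 4 groups. The authors deposited FPKM values with 2 decimals for 55401 genes, and 0 columns were left unmatched. The submitters' processing notes name STAR 2.7.5a, RSEM 1.3.3 and DESeq2 1.28.0. The authors' 4 DESeq2 tables hold their fold changes and p-values and were not used. As FPKM is a normalized unit, count models were not used, and the total depth is not known. Each library was rescaled to a sum of 1000000 (TPM). Genes reaching 1 TPM in 3 or more of the 12 libraries entered limma 3.58.1 (eBayes with trend, R 4.3.3) on log2(TPM + 1), which understates the change of low genes, with 1 mean per group over 12 libraries and 8 residual degrees of freedom. All p-values and 95% intervals are two-sided and from limma, adjusted by Benjamini-Hochberg over all 15504 genes. They measure the spread between these tumors; an exact permutation test of 3 against 3 cannot go below 0.1. The script was tested on simulated data. Gene types, lengths and coordinates come from GENCODE M21 (GRCm38), which held 15486 of the tested genes. A symbol with several identifiers was taken from the one with the higher level.

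Named were every gene past the threshold; in each direction the 8 genes with the smallest p and the 6 with the largest difference among those without overlap and with a mean of at least 5 TPM in a group; the receptors, ligands and pathway core of both proteins; the expanded immune signature; and up to 4 examples a list. Protein-coding genes beyond that rule were added after their values were seen. The 46 lists and the members were chosen with earlier results of these data known. Alternatives were another pseudocount, scaling, filter, threshold or set of libraries, a set term, array quality weights and leaving out each library. Some single genes are not reported here.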

Additional observations from a re-analysis of the deposited data

How the results depend on the processing

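The count of genes past the threshold, 0 as reported, stayed 0 with a pseudocount of 0.1, FPKM without rescaling, a filter of 5 TPM, the set term, and an adjusted p below 0.1 with no fold minimum. It was 1 with median of ratios scaling (Gm47314), with no filter on low values (Snora2b), with only the 6 libraries (mt-Tp), and with only the lower-sum libraries (Rpl30-ps10). It was 37 with array quality weights, 18 higher and 19 lower in BF10, among them the red cell genes Hbb-bs and Alas2 and the chemokine gene Ccl6 (all lower), in a fit where the estimate of the weights stopped before it converged. Leaving out 1 library gave 0 to 1, and the 1 was Gm47314 without IL-10-Fc replicate 7. After the data were seen, a test of the 12821 protein-coding genes alone was added and gave 0 (6 at an unadjusted p below 0.05), and only the 6 libraries with the set term gave 1 (mt-Tp). The 42 genes at an unadjusted p below 0.05 numbered 9 with the filter of 5 TPM, 35 to 113 on leaving out a library, 141 with the set term, 259 with the 6 libraries and the set term, 474 with only the lower-sum libraries, 593 with no filter and 2153 with array quality weights. The cause of these changes was not tested.

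The share of genes with a difference above 0 was 35.7% as reported, 52.8% with median of ratios scaling, 68.4% without BF10 replicate 6 and 24.2% without IL-10-Fc replicate 7. The all-gene median moved to 0.15 without BF10 replicate 6, -0.13 without BF10 replicate 3, -0.13 without BF10 replicate 7 and -0.18 without IL-10-Fc replicate 7, so small list medians are to be read against it. Of 46 lists, 5 kept the sign of their median in every alternative: alternatively activated macrophage (-0.72 to -0.0040), mast cell and eosinophil (0.15 to 0.63), interferon alpha response (0.06 to 0.50), Fc gamma receptor (0.05 to 0.28) and erythrocyte (-1.81 to -0.61). Of 197 named genes, 84 kept their sign in all alternatives and 8 passed the threshold in at least 1. No paired analysis was possible because BF10 and IL-10-Fc tumors share only the replicate number 7 in the labels, and nothing in them says that a number marks a shared animal, day or batch. With no counts given, depth per gene is not known, and values of a few TPM in short genes are the least certain.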
